A study of Drosophila melanogaster with 4 samples.

Results

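The genes considered here are *skd*, *dom* and *E(var)3-9*, and their members are the Ab peaks of 2 deposited lists with at least 1 bp inside the stretch of dm3 that the study's genome browser panel shows for each gene. The panels span 33300 bp on 3L for *skd*, 21752 bp on 2R for *dom* and 2272 bp on 3R for *E(var)3-9*. They hold 41 of the 19773 peaks of both lists, 19 of 8881 in *ab* and 22 of 10892 in *scrib-*+*ab*. The *ab* sample is mosaic eye/antennal discs of the larva with clones that overexpress *ab* from UAS-ab55, and in the *scrib-*+*ab* sample the clones that overexpress *ab* are also homozygous for *scrib1* on an FRT82B chromosome. Both were taken at day 5 AEL. Clones were induced by *ey-FLP* and marked by the MARCM system, so tissue that does not overexpress *ab* lies beside them in every disc. The chromatin of the clones and of this tissue was pulled down with the same anti-Ab antibody. Between 3 and 6 immunoprecipitations were pooled into 1 library per genotype, and each list was called against the input library of its own genotype. With 1 library per genotype no value has a replicate error and no test between genotypes is possible, so a difference is one between these libraries. The lists give neither reads nor heights, and peak length in bp is the only graded measure.

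All 3 genes encode proteins that act on chromatin or on the transcription machinery. *skd* encodes Med13, a subunit of the kinase module of Mediator, the complex that links transcription factors bound to DNA with RNA polymerase II. The kinase module binds Mediator reversibly, and in flies *skd* is required for the development of the eye and other appendages. *dom* encodes an ATPase of the SWI2/SNF2 superfamily that exchanges histone variants in nucleosomes and is a partner of the Tip60 acetyltransferase. *E(var)3-9* was named as an enhancer of position-effect variegation, the silencing of a gene placed beside heterochromatin, and encodes a zinc finger protein. Ab is itself a DNA-binding protein, with a BTB domain and zinc fingers.

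The 3 genes differed in how many Ab peaks they carried and in whether *scrib-*+*ab* had any. They were set side by side with this difference already known, so it is a description and not a finding. *skd* had 17 *ab* peaks and 22 *scrib-*+*ab* peaks, most of them overlapping a peak of the other sample. *dom* had 1 *ab* peak of 173 bp at its start site and no *scrib-*+*ab* peak. *E(var)3-9* had 1 *ab* peak of 39 bp in its first exon and no *scrib-*+*ab* peak. In the deposited lists *skd* therefore has peaks in both samples, and *dom* and *E(var)3-9* in *ab* alone. By place, the *dom* peak reached into the 500 bp upstream of a start site, and the *E(var)3-9* peak lay in an exon as drawn.

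*skd* is drawn on the minus strand with 3 transcripts that start at 3L 21020498. One of them has a shorter first exon, and another has an additional exon in intron 7. Exons are numbered here along the transcript of 13 exons with the long first exon. The panel has 27.7 bp per pixel, so exon limits are known to about that distance. The 17 *ab* peaks made 0.511 peaks per kb of the window, against 0.0753 per kb over the whole *ab* list, which is 6.78 times as many. The 22 *scrib-*+*ab* peaks made 0.661 per kb against 0.0917, or 7.21 times as many. When the 5 chromosome arms were divided into consecutive windows of the same width, 24 of 3568 (0.673%) held at least 17 *ab* peaks and 20 (0.561%) held at least 22 *scrib-*+*ab* peaks. The median window held 1 peak in either sample. At that width *skd* thus lies among the most densely covered stretches of the genome in both samples, and other stretches hold more, up to 25 *ab* and 32 *scrib-*+*ab* peaks. Since *skd* was chosen here as a gene with many peaks, its high place describes that choice and is no separate evidence.

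All peaks of *skd* lay in the 5′ part of the gene, upstream of exon 4. Exon 1 (3L 21020001 to 21020498) held 1 *ab* and 2 *scrib-*+*ab* peaks, intron 1 held 2 and 2, exon 2 (21018037 to 21018617) held 1 and 3, the 12418 bp of intron 2 held 4 and 6, and the 5421 bp of intron 3 held 9 and 9. The remaining 13427 bp of the window, from 20987213 to 21000639, contain exons 4 to 13 and had no peak of either sample. Of consecutive windows of that width along the arms, 53.3% had no peak of either sample, so that the empty 3′ part is not unusual by itself. Within intron 2 there was another stretch without peaks, 8473 bp from 21008046 to 21016518. Whether reads could be placed there was not tested. Between these stretches the peaks fell into 4 groups that lay over 1 kb apart. From the start site inwards they held 4 *ab* and 7 *scrib-*+*ab* peaks over 2303 bp, 1 and 2 over 318 bp, 3 and 4 over 1392 bp, and 9 and 9 over 4320 bp.

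**Figure D1:**
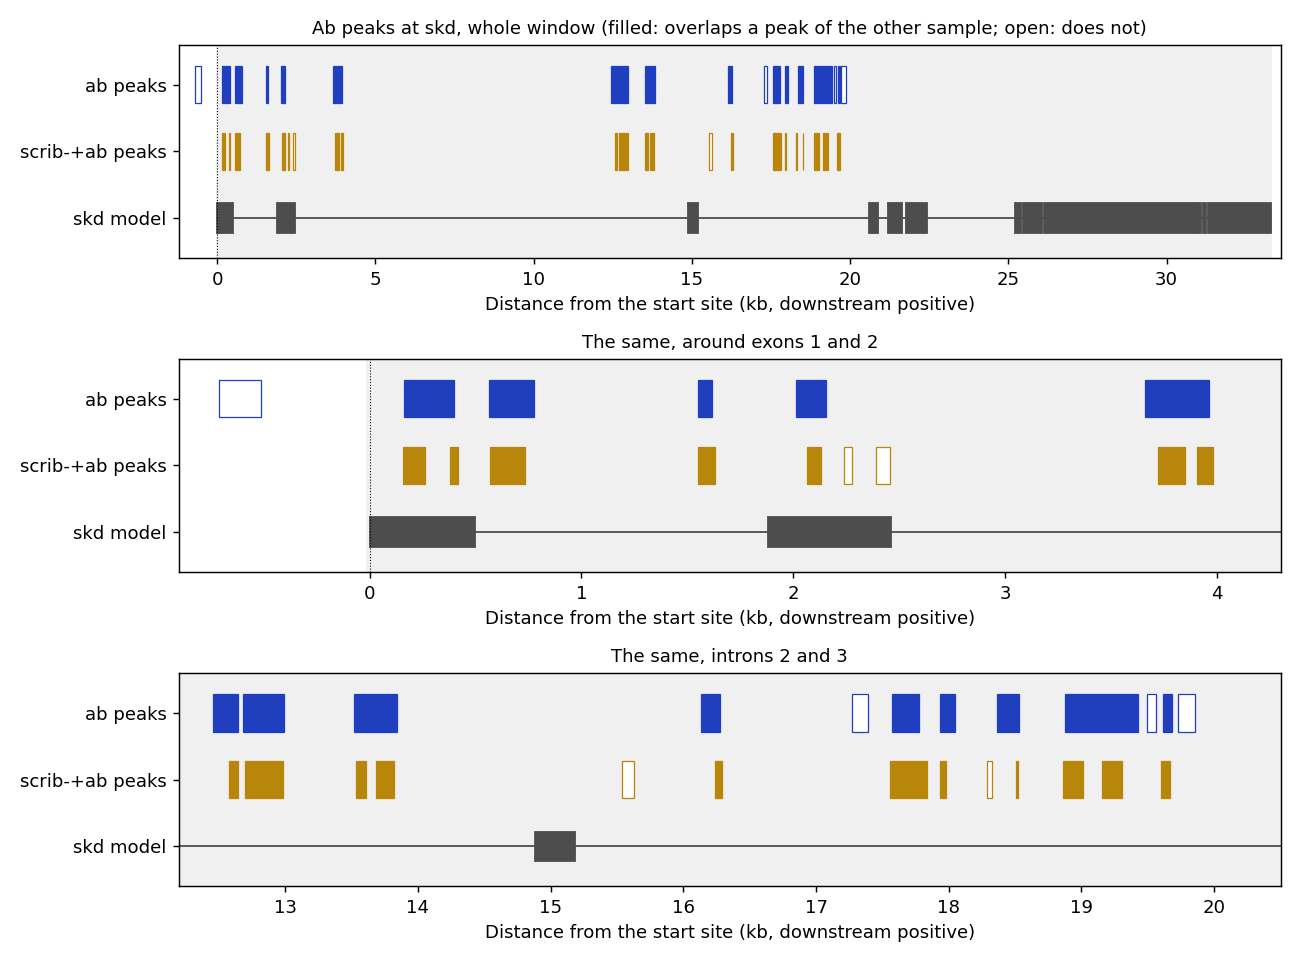
Ab peaks along *skd* by distance from its start site in kb, with *ab* in blue above, *scrib-*+*ab* in gold and the exons in grey, and 2 enlarged stretches. Filled bars overlap a peak of the other sample, open bars do not, and the grey ground is the panel's window. Both samples have peaks over the same 4 stretches, and neither has one beyond 19858 bp from the start site.

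The group at the start site of *skd* began 156 bp inside the gene. Its first *ab* peak ran from 21020098 to 21020334 (237 bp). It was overlapped at either end by a *scrib-*+*ab* peak, one from 21020239 to 21020342 (104 bp) and one from 21020082 to 21020120 (39 bp). The stretch they cover is exon in 2 of the drawn transcripts and intron in the one with the short first exon. Intron 1 had a peak of 216 bp in *ab* at 21019720 to 21019935 and one in *scrib-*+*ab*, from 21019767 to 21019928, that lay wholly inside it. At the next pair, the *scrib-*+*ab* peak was the longer one, with 85 bp against 67 bp. Exon 2 held an *ab* peak of 144 bp that contained a *scrib-*+*ab* peak of 69 bp, and 2 further peaks of *scrib-*+*ab* alone of 39 bp and 69 bp. Upstream of *skd* an *ab* peak of 198 bp began 514 bp from the start site, at 21021012 to 21021209. It lies 14 bp beyond the 500 bp that were taken as the promoter region, which is less than 1 pixel of the drawing, and the nearest *scrib-*+*ab* peak was 669 bp away.

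The longest peaks of *skd* lay in introns 2 and 3. The longest *ab* peak, 557 bp at 21001069 to 21001625 in intron 3, was longer than 96.8% of all *ab* peaks, and was overlapped by 2 peaks of the other sample, with 152 bp and 146 bp. The next longest *ab* peaks were in intron 2, with 330 bp at 21006654 to 21006983 and 310 bp at 21007505 to 21007814. In *scrib-*+*ab* the longest was a peak of 282 bp at 21007517 to 21007798, which lay wholly within the *ab* peak of 310 bp. It was followed by a peak of 277 bp at 21002665 to 21002941 in intron 3 and by the peak wholly inside the *ab* peak of intron 1. The order of lengths of called peaks therefore differed between the samples, and it depends on how a stretch was split into peaks. The *ab* peak of 557 bp stood over 2 *scrib-*+*ab* peaks of 152 bp and 146 bp, whereas at the *scrib-*+*ab* peak of 277 bp the *ab* peak had 206 bp.

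Most peaks of *skd* were shared between the samples. Of its *ab* peaks 14 of 17 (82.4%, exact 95% interval 56.6 to 96.2%) overlapped a *scrib-*+*ab* peak by at least 1 bp, against 59.1% of the whole list. Of its *scrib-*+*ab* peaks 18 of 22 (81.8%, 59.7 to 94.8%) overlapped an *ab* peak, against 58.2%. These intervals treat peaks as independent and cover counting error only. The peaks lie close together in a single gene, so the intervals are no test against the whole lists. Joined where they overlap, the peaks of both samples formed 21 regions, of which 14 had both samples, 3 had *ab* alone and 4 had *scrib-*+*ab* alone. The peaks of *skd* covered 3365 bp in *ab* and 2218 bp in *scrib-*+*ab*, a ratio of 1.52 against 1.62 over the whole lists. The common part was 1805 bp, which is 53.6% of the *ab* bases and 81.4% of the *scrib-*+*ab* bases at *skd*, against 41.3% and 66.7% over the whole lists. The requirement that each peak has at least 50% of its length in the overlap reduced the shares to 29.4% and 22.7%.

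The 7 peaks of *skd* that were in 1 sample alone lay close to a peak of the other sample. The *ab* peaks alone had 130 bp (21000640 to 21000769), 68 bp (21000936 to 21001003) and 118 bp (21003107 to 21003224), all in intron 3, and the nearest *scrib-*+*ab* peak was 36 to 165 bp away. The *scrib-*+*ab* peaks alone had 39 bp (21002171 to 21002209) and 94 bp (21004866 to 21004959) in intron 3, and 39 bp (21018222 to 21018260) and 69 bp (21018040 to 21018108) in exon 2, with an *ab* peak 34 to 500 bp away. Each of the 7 thus had a peak of the other sample within 500 bp. Over the whole lists this held for 43.1% of the 3629 single *ab* peaks and for 40.7% of the 4552 single *scrib-*+*ab* peaks. A gene with many peaks offers a neighbour more often, and what that adds here was not tested.

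Where peaks of *skd* could be paired as each other's longest overlap, the *ab* peak was usually the longer one. Of 14 pairs it was longer in 11, with a median ratio of 2.34 and a range of 0.744 to 10.5, and over all 5179 pairs of the lists it was longer in 82.7%, with a median ratio of 1.73. Where an *ab* peak overlapped 2 *scrib-*+*ab* peaks, only 1 of them entered a pair, so the pairs leave out part of the *scrib-*+*ab* length. By covered bases the ratio at *skd* was 1.52, below the 1.62 of the whole lists. The ratio of 10.5 belongs to the *ab* peak from 21001969 to 21002136 (168 bp), since the *scrib-*+*ab* peak within it had 16 bp and was the shortest peak of the gene. The 3 pairs with a longer *scrib-*+*ab* peak were the one of 85 bp in intron 1 and those of 277 bp and 71 bp in intron 3. The midpoints of paired peaks were a median of 31.5 bp apart and at most 77.5 bp, against a median of 32 bp over the whole lists.

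**Figure D2:**
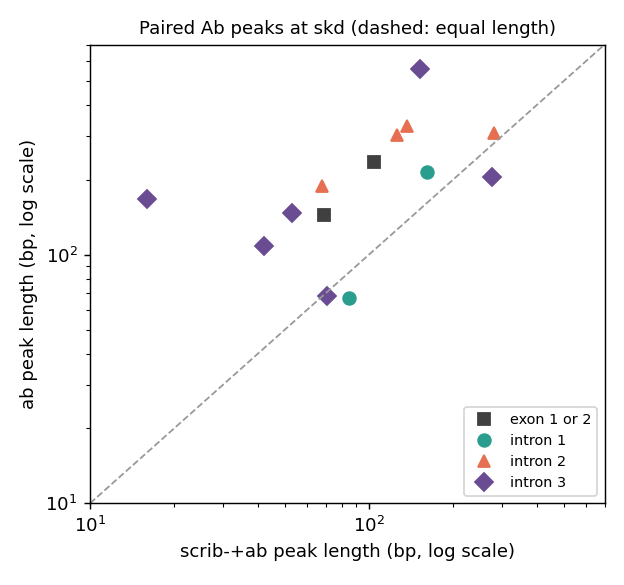
Lengths of the 14 paired peaks of *skd*, with the *scrib-*+*ab* peak on the horizontal and the *ab* peak on the vertical axis, both in bp on a log scale, and the part of the gene as symbol. The dashed line marks equal length, and 11 pairs lie above it.

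The lengths of *skd* peaks differed little from those of the lists they came from. Their median was 168 bp in *ab* (range 67 to 557 bp) and 74 bp in *scrib-*+*ab* (16 to 282 bp), and the medians of the whole lists were 151 bp and 69 bp. *skd* thus stood apart from the lists by the number of its peaks, for which it was chosen, more than by their length. None of its *ab* peaks and 4 of its *scrib-*+*ab* peaks were under 40 bp, which is the setting for read length in the peak calling. Over the whole lists this held for 235 of 8881 *ab* peaks (2.65%) and 2538 of 10892 *scrib-*+*ab* peaks (23.3%), so this difference between the samples is not particular to *skd*.

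**Figure D3:**
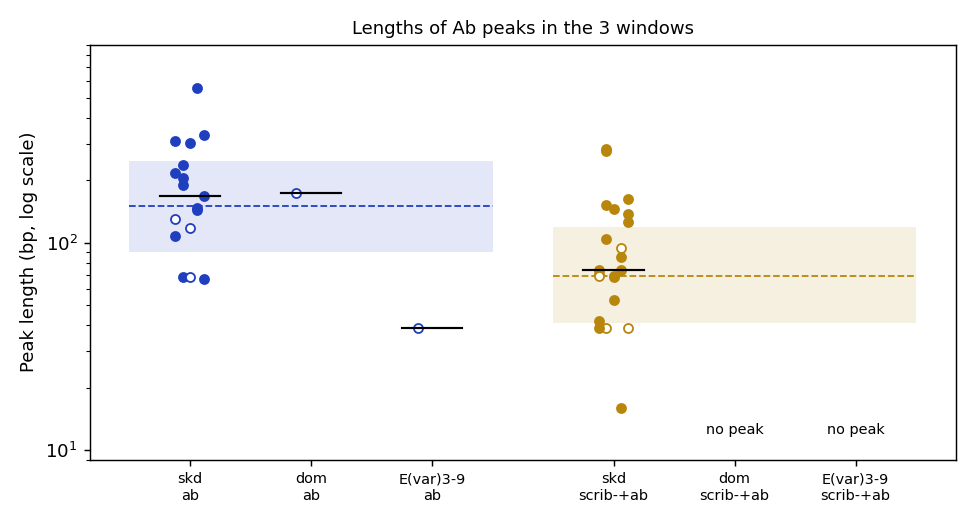
Lengths of the Ab peaks in the windows of *skd*, *dom* and *E(var)3-9* in bp on a log scale, one point per peak, filled where a peak of the other sample overlaps it. Black bars are medians of a gene, dashed lines the medians of the whole lists (151 bp and 69 bp) and shaded bands their middle 50%. The *dom* peak lies within the band of *ab* and the *E(var)3-9* peak of 39 bp far below it.

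*dom* is drawn on the plus strand with 4 transcripts that share a start site at 2R 17210949, at 18.1 bp per pixel. Its single *ab* peak, at 17210828 to 17211000, spanned the start site, with 121 bp upstream and 52 bp in the first exon. The study's panel draws the bar of this peak beneath the track of the other sample, and its sample is given here as the deposited lists have it. The same interval also falls in a neighbouring gene. *CG30394*, drawn on the opposite strand, starts at 17211056, and its first exon as drawn contains all 173 bp of the peak, 56 bp from that start. The peak therefore cannot be assigned to *dom* rather than *CG30394* by position. Its length exceeded that of 56.9% of all *ab* peaks, so it was of ordinary size, and of *ab* peaks with at least 100 bp and under 200 bp, 58.0% (95% interval 56.2 to 59.7%) overlapped a *scrib-*+*ab* peak.

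No other peak of either sample lay in the window of *dom* or within 5000 bp of it. The nearest *scrib-*+*ab* peak to the *dom* peak, 206 bp at 2R 17186140 to 17186345, was 24482 bp away, and on the other side the distance was 38654 bp. Among the 3629 *ab* peaks without an overlap, 96.9% had a *scrib-*+*ab* peak nearer than that, and the median distance was 735 bp. The nearest other *ab* peak was 10266 bp away and had 65 bp. The *dom* peak was thus farther from any *scrib-*+*ab* peak than most such *ab* peaks. However, *dom* was chosen as a gene whose window holds no *scrib-*+*ab* peak, which fixes part of this distance. Its rank is therefore a description and not a finding. Whether its distance to the next *ab* peak is unusual was not tested, and 49.6% of consecutive windows as wide as that of *dom* held no *ab* peak. Of consecutive windows as wide as that of *dom*, 46.6% held no *scrib-*+*ab* peak. Of those with at least 1 *ab* peak, 11.3% held no *scrib-*+*ab* peak, and of the 921 with exactly 1 *ab* peak, 24.5%.

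*E(var)3-9* is drawn on the minus strand with 1 transcript of 4 exons, from 3R 4816382 to its start at the panel's edge at 4818654, at 1.9 bp per pixel. Its *ab* peak, at 4818596 to 4818634, lay in the first exon, 20 to 58 bp from the start site. The panel ends at the start site, and in the 5000 bp beyond it there was no further peak of either sample. With 39 bp the peak was among the shortest, since only 1.18% of *ab* peaks were shorter. Of the 565 *ab* peaks under 50 bp, 20.2% (95% interval 16.9 to 23.7%) overlapped a *scrib-*+*ab* peak. It stood at 89.2% of the way through the *ab* list of 3R, whereas the *dom* peak stood at 39.5% of the list of 2R. The *skd* peaks stood between 2.12% and 83.3% of the list of 3L, with the peak of 557 bp first. The order of the lists is not explained in the sources used here.

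The nearest *scrib-*+*ab* peak to the *E(var)3-9* peak was 12723 bp away, 185 bp at 3R 4805688 to 4805872, and 91.2% of *ab* peaks without an overlap had a nearer one. That *scrib-*+*ab* peak was itself part of a shared place, since the nearest other *ab* peak, 200 bp at 4805667 to 4805866, overlaps it. Around *E(var)3-9* both samples were therefore without further peaks for over 12 kb on that side. *E(var)3-9* was also chosen for a window without a *scrib-*+*ab* peak, so the rank of its distance is a description and not a finding. The window of *E(var)3-9* is small, and 87.9% of consecutive windows of its width held no *scrib-*+*ab* peak. Of those with at least 1 *ab* peak, 26.7% held no *scrib-*+*ab* peak, and of the 3598 with exactly 1 *ab* peak, 36.6%.

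**Figure D4:**
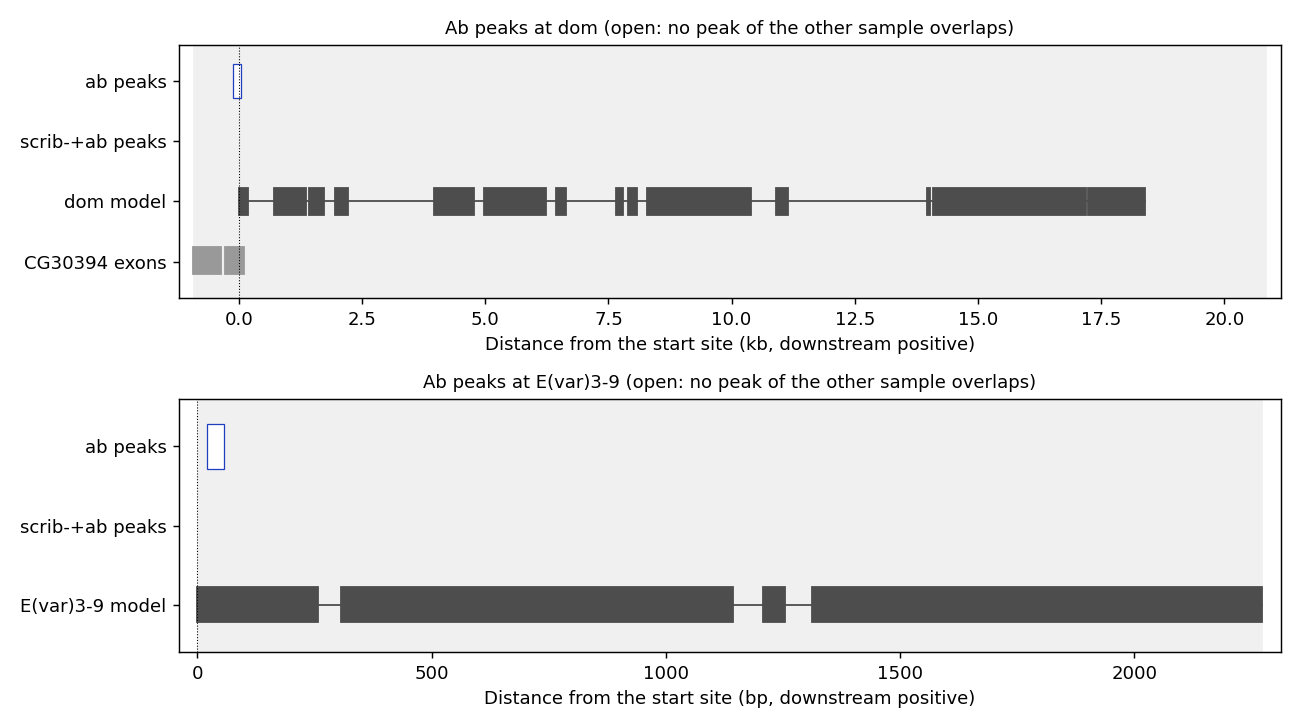
Ab peaks at *dom* (distance from the start site in kb, with the exons of *CG30394* below) and at *E(var)3-9* (distance in bp), with *ab* in blue, *scrib-*+*ab* in gold and exons in grey. Each gene has 1 open *ab* bar at its start and an empty row for *scrib-*+*ab*.

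*skd* had more peaks than the other genes, for which it was chosen, and they reached farther into the gene. Of consecutive windows as wide as that of *skd* with at least 1 *ab* peak, 8.1% held no *scrib-*+*ab* peak. Per kb of window, the 1 *ab* peak of *E(var)3-9* made 5.85 times the density of the whole list, whereas that of *dom* made 0.611 times. The first value reflects the small window. Of consecutive windows as wide as that of *E(var)3-9*, 11.4% held at least 1 *ab* peak. Of those as wide as that of *skd*, 0.673% held at least 17. With 1 *ab* peak each, the shared share of *dom* and of *E(var)3-9* was 0 of 1. Both were chosen as genes without a *scrib-*+*ab* peak, so this value was fixed by the choice. No comparison with the sharing of *skd* is drawn from it. Peaks of *skd* ran up to 19858 bp into the gene, and those of *dom* and *E(var)3-9* lay within 121 bp of a start site. The window of *E(var)3-9* has only 2272 bp, so no peak in it could reach as far, and 1 peak cannot show a spread. The *dom* peak was about as long as the median *skd* peak of *ab*, with 173 bp against 168 bp, but had no counterpart. The *E(var)3-9* peak was shorter than any *ab* peak of *skd*, of which the shortest had 67 bp. At the density of the whole *ab* list, 1.64 peaks would fall in the window of *dom*, 0.171 in that of *E(var)3-9* and 2.51 in that of *skd*, where 1, 1 and 17 were called. At the density of the whole *scrib-*+*ab* list, 1.99 peaks would fall in the window of *dom*, 0.208 in that of *E(var)3-9* and 3.05 in that of *skd*. None was called in the first 2 and 22 in the last.

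**Figure D5:**
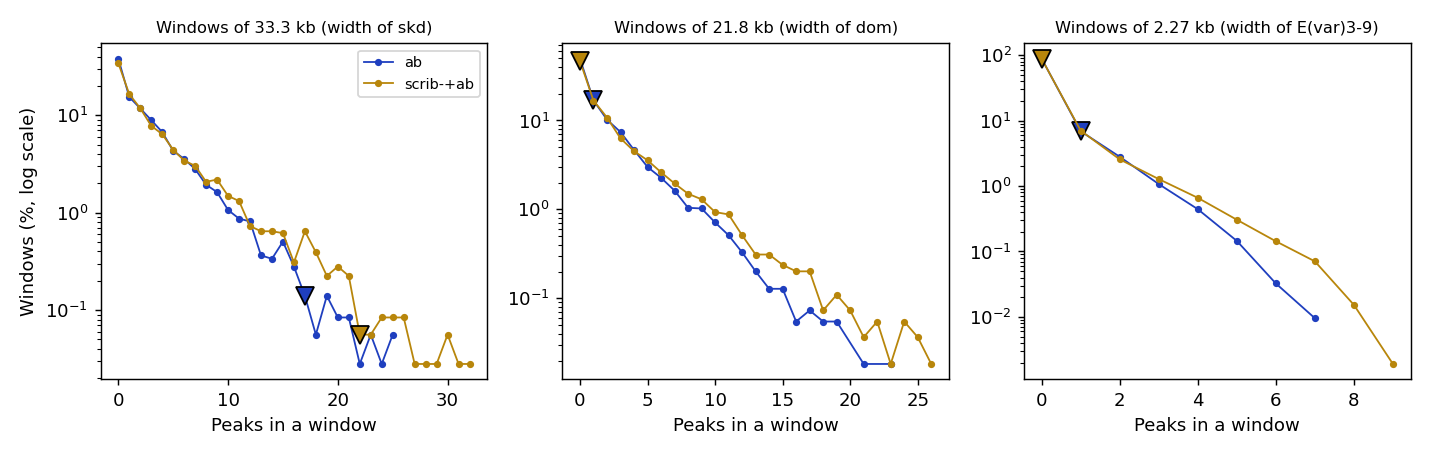
Share of consecutive windows along the chromosome arms (percent, log scale) by the number of Ab peaks they hold, for windows as wide as those of *skd*, *dom* and *E(var)3-9*. Triangles mark the genes' own numbers, 17 and 22 for *skd* and 1 and 0 for *dom* and *E(var)3-9*, in *ab* (blue) and *scrib-*+*ab* (gold).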

How the data were processed

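The authors aligned ChIP-Seq reads to dm3 with Bowtie and called peaks for each sample against its input with PeakSeq, and the file headers give a threshold of 0.0001. The deposited lists hold an arm, a start and an end per peak, and the deposited score is a constant 1. Starts, counted from 0 there, were counted from 1 here. Read depth is not in the lists. Windows and gene models were read from pixels of the browser panels. All 41 peaks of the windows were drawn as bars, and their midpoints differed from the lists by at most 36.5 bp. Read tracks, class assignments, arrays, input libraries and sequence were not used here. No dm3 annotation was used, and other genes of the Mediator kinase module and Tip60 complex were not analysed here.

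Shared means at least 1 bp in common. Shares have exact (Clopper-Pearson) 95% intervals. Consecutive windows of a gene's width, from the first base of each arm to its last peak, served as description. The named genes are the 3 genes of the rule and neighbours in whose exons a peak lies. Every peak of the 3 genes was counted, and the longest, the shared and the single ones were described. No test was made. Counting was tested on simulated lists, where 100% of planted overlaps were recovered. Genes, lists and alternatives were chosen with earlier results of these data known. Counts and intervals were computed in Python 3.11.15 (NumPy 2.4.6, and SciPy 1.17.1 for intervals), panels were read with Pillow 12.0.0, and plots were drawn with Matplotlib 3.10.9.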

Additional observations from a re-analysis of the deposited data

How the results depend on the processing

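Of 86 alternatives, 69 left the value of *skd*, *dom* or *E(var)3-9* within 1.5 times, or a share within its interval. With the longer 50% of each list *skd* kept 9 *ab* and 13 *scrib-*+*ab* peaks, and with peaks within 500 bp joined it had 7 and 8 regions with median lengths of 541 bp and 345 bp. With the first 50% of each list within its arm, chosen after seeing the data, *skd* had 9 and 11 peaks. The *E(var)3-9* peak of *ab* was lost (0 peaks) with the longer and with the first 50% of the list and under a minimum length of 40 bp, and its sharing then had no value. The *dom* peak stayed under all of these. *dom* and *E(var)3-9* had no *scrib-*+*ab* peak under any setting, but this could not have come out otherwise. Most settings only remove or join peaks, and the nearest *scrib-*+*ab* peaks, 24482 bp and 12723 bp away, lie outside the windows widened by 5000 bp. These unchanged counts of 0 are among the 69 and are no sign of stability. The shares of *skd* fell to 29.4% (*ab*) and 22.7% (*scrib-*+*ab*) under a reciprocal overlap of 50% and rose to 100% and 100% with a gap of up to 500 bp. A model shifted up by 1 pixel, or a promoter region of 1000 bp, gave *skd* 1 *ab* promoter peak in place of 0, and a shift down by 1 pixel left it at 0. No paired analysis was possible because each genotype has 1 library. Peak height, depth and the spread between animals are not known from these lists, and a missing *scrib-*+*ab* peak is a missing call, not a measured absence of Ab.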
